A study of Mus musculus with 6 samples.

Results

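The cytochrome P450 genes of families 2 and 3 were followed in mouse liver. Members were all genes of the deposited gene table whose symbol starts with Cyp2 and a letter, or with Cyp3a. The rule itself used the symbol and no measured value, but it was chosen with earlier results of these data known. It gave 58 of 21362 listed genes, of which RefSeq annotates 55 as protein coding and 3 as transcribed pseudogenes. All 6 livers came from Mettl14f/f males, which carry loxP sites around part of Mettl14, the partner subunit of METTL3 in the complex that writes N6-methyladenosine on mRNA. The males received a high-fat diet (HFD) from 8 weeks of age, and after 10 weeks of HFD they were injected through the tail vein with an adeno-associated virus carrying Cre (AAV8-TBG-Cre, n = 3, labelled METTL14 KO) or green fluorescent protein (AAV8-TBG-GFP, n = 3, labelled WT). RNA was taken 8 weeks after injection, at 26 weeks of age if the stated intervals are added. The floxed alleles, the diet and a viral vector were thus common to both groups. No group received Cre without floxed alleles, so effects of Cre itself and of the deletion cannot be told apart. The TBG promoter confines Cre to hepatocytes, and the other liver cells in the sample keep the gene. The labels do not describe the replicates beyond their numbers; the study states 3 mice per group.

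The libraries held 20356440 to 21010508 counts. Mettl14 itself was at 6.30, 6.43 and 5.81 counts per 1000000 (CPM) in the AAV8-TBG-GFP livers and at 4.96, 5.38 and 4.86 CPM in the AAV8-TBG-Cre livers. The Cre values lay below all GFP values, but the log2 fold change of -0.29 ± 0.15 (SE) did not pass the test (edgeR adjusted p = 0.337), and a count over the whole gene does not measure the loss of the floxed part alone. Male origin showed in every library, with Ddx3y at 907 to 1073 counts and Xist at 9.62 counts or fewer. The 8 hepatocyte markers examined (Alb, Ttr and others) summed to 101000 to 120000 CPM in the GFP livers and 78000 to 101000 CPM in the Cre livers, and 2 of the 8 (Ttr, Apoa2) were lower at the threshold defined below. Markers of other cell types moved as well: 8 of 8 tested cholangiocyte markers were higher (summed 50.4 to 104 CPM against 273 to 544 CPM, with Krt19 and Epcam never at 0), as were 5 of 8 stellate cell and fibroblast markers (127 to 196 CPM against 339 to 754 CPM) and 5 of 8 macrophage markers (172 to 199 CPM against 242 to 327 CPM). Most of the cholangiocyte sum was Spp1, at 38.0 to 89.0 CPM in the GFP livers and 219 to 457 CPM in the Cre livers. Of the 8 endothelial markers, 1 (Stab2) was lower. At the same threshold 12.0% of all tested genes were higher and 8.41% lower. Lymphocyte and neutrophil marker sums were at most 16.8 CPM in any library. In whole liver, fewer cells of a type and less RNA per cell cannot be told apart.

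Cytochrome P450 enzymes are heme proteins of the endoplasmic reticulum that insert an oxygen atom into their substrates, drawing electrons from NADPH through cytochrome P450 reductase and, for some reactions, through cytochrome b5. Families 2 and 3 carry out much of the oxidation of drugs and other foreign compounds in hepatocytes and also act on steroids, fatty acids and arachidonic acid. The mouse genome holds them mostly as tandem clusters of close paralogs, several of which differ between males and females under the control of growth hormone, and many are induced through the nuclear receptors CAR (Nr1i3) and PXR (Nr1i2).

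Sequence likeness within these clusters bears on how fragments can be assigned to a gene, and 2 pairs with near-identical upstream sequence are shown because 1 or both genes of each passed the test described below. Cyp2a4, which passed, and Cyp2a5, which did not, lie on chromosome 7 with 520.2 kb between them. Their coding sequences were 98.5% identical. In the upstream windows of 210 bases shown here, 205 of 209 aligned bases were identical. Cyp2b13 and Cyp2b9, which both passed and are separated by 77.2 kb on the same chromosome, shared 92.5% of their coding sequence and 141 of 143 upstream bases. The windows run 5′ to 3′ on the plus strand (RefSeq, GRCm38.p6), counted from the annotated start of the gene from position -250 to -41 for Cyp2a4 and Cyp2a5, from -143 to -1 for Cyp2b13 and from -191 to -49 for Cyp2b9. They lie at chr7:26306942-26307151, chr7:26835089-26835298, chr7:26061245-26061387 and chr7:26173159-26173301, in the order printed. Capitals mark the bases that differ within a pair.
Cyp2a4: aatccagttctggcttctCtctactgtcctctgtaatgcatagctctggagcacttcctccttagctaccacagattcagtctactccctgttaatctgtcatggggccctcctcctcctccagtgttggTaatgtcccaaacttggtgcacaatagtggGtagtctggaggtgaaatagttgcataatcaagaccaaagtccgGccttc
Cyp2a5: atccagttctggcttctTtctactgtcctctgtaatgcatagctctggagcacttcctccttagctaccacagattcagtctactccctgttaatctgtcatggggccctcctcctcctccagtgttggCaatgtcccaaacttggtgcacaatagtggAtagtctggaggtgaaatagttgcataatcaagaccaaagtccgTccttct
Cyp2b13: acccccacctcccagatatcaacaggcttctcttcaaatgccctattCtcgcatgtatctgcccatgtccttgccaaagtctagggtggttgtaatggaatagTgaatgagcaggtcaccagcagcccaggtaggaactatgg
Cyp2b9: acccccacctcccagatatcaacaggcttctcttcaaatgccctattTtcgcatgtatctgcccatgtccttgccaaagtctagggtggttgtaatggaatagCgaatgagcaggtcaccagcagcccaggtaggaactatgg

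The upstream sequence of Cyp3a11, which had the largest rise in CPM among the members, is shown for its match to sequence motifs of nuclear receptors. It covers positions -250 to -91 at chr5:145879945-145880104 (minus strand, GRCm38.p6). Capitals mark the half-site AGGTCA, the core that PXR, CAR and other nuclear receptors bind in pairs, and the motif CAAAGTCCA of HNF4.
Cyp3a11: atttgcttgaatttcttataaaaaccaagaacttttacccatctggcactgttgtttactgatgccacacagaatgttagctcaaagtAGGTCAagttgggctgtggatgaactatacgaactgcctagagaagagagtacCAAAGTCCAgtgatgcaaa
Among the 48 members with an upstream window of 250 bases, 15 (31.2%) held AGGTCA on either strand, against 14.0% of all 32851 windows. The HNF4 motif was present in 9 of 48 members (18.8%) against 0.384% of all windows. TATAAA was found in 21 of 48 (43.8%) against 12.4%. Of the 10 members with a window that passed the expression threshold below, 5 held AGGTCA (Cyp2b13, Cyp2b9, Cyp2c29, Cyp2j5 and Cyp3a11, which include both genes that fell and a gene that rose) and 1 held the HNF4 motif. A member was counted if any of its windows held the motif, whereas the share of all windows counted each window singly, so these are unlike measures. Members of a cluster share sequence by descent, so these windows are not independent. A match describes letters and does not show binding.

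Of the 58 members, 42 had enough fragments to be tested. The 16 others reached at most 1.19 CPM in any library, and Cyp2j11 and Cyp2w1 had no fragment in any. Most tested members had lower values in the Cre livers: 34 of 42 log2 fold changes were negative (81.0%, against 51.0% of all 13431 genes tested), with a median of -0.35 against -0.00648 over all genes. A gene was counted as lower or higher when the edgeR p-value was under 0.05 and the change was at least 1.2-fold. This is the threshold the study used, and its p is not adjusted for the number of genes. The same rule, with the unadjusted p of each fit, decided whether a call was kept or lost. Adjusted p-values printed beside a call did not decide it. By that rule 8 members were lower (19.0%, where 8.41% of all tested genes were lower) and 4 were higher (9.52%, where 12.0% of all tested genes were higher). At an adjusted p under 0.05, 1 member was lower, Cyp2d40, where 0.447% of all genes were lower and 0.484% were higher. No member was higher at that level in edgeR, although 4 were at the unadjusted threshold and DESeq2 gave 3 higher. DESeq2 also passed more genes of all kinds at that level, 1157 against 125 in edgeR. The 3 AAV8-TBG-Cre livers lay below all 3 AAV8-TBG-GFP livers in CPM for 13 members (31.0%), which happened for 13.0% of all genes. They lay above all GFP livers for 2 members, Cyp2a4 and Cyp2s1, as they did for 14.0% of all genes.

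**Figure D1:**
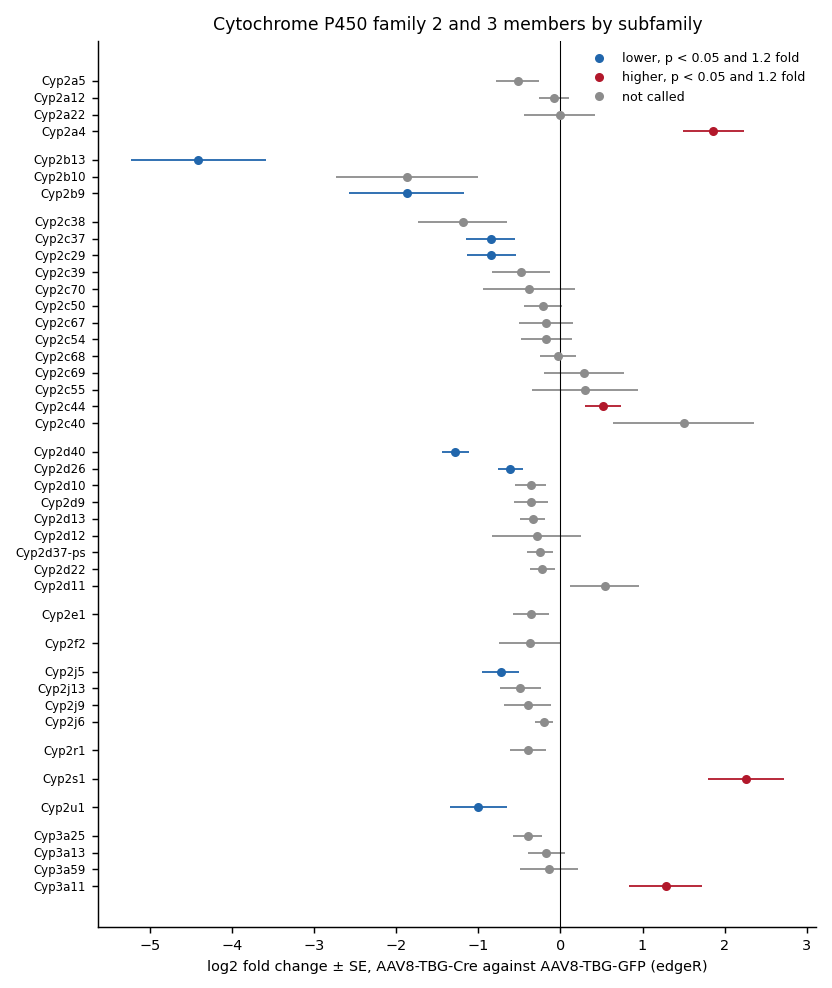
Log2 fold change with standard error (horizontal axis) of the 42 tested P450 members, AAV8-TBG-Cre against AAV8-TBG-GFP (n = 3 livers each), arranged by subfamily on the vertical axis; blue points passed the threshold as lower, red as higher and grey did not pass. Points lie left of 0 for 34 members, and the 4 red points belong to 4 different subfamilies (2a, 2c, 2s and 3a).

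The size of the shift depended on how libraries were scaled. CPM used here was scaled by the trimmed mean of M-values (TMM), which puts the median of all genes near 0. The deposited FPKM values were not scaled in this way, and on log2(FPKM + 1) the median of all genes was 0.112 and that of the members -0.19, a difference of -0.30. Mean FPKM was lower in the Cre livers for 30 of the 42 members. On that scale 6 members (against 4.26% of all genes) lay wholly below the GFP livers and 4 (against 24.2%) lay wholly above. The 9 members whose grouping changed between the scales were Cyp2b9, Cyp2c29, Cyp2c37, Cyp2c44, Cyp2d10, Cyp2e1, Cyp2j13, Cyp2j6 and Cyp3a11.

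Levels between genes were compared in FPKM, which accounts for transcript length. Cyp2e1, the ethanol- and acetaminophen-oxidizing enzyme of pericentral hepatocytes, dominated the family. Its FPKM was 5428, 5986 and 5695 in GFP replicates 1 to 3 and 3901, 6157 and 5013 in Cre replicates 1 to 3, the order kept for all values below. These amounted to 43.5% to 51.3% of the summed FPKM of all members. In CPM it stood at 9870, 11100 and 11000 against 6720, 9180 and 8910, so the groups did not overlap in CPM but did in FPKM. The log2 fold change of -0.36 ± 0.22 did not pass (adjusted p = 0.407). In the GFP livers 16 members averaged 100 FPKM or more and 23 averaged under 1 FPKM. After Cyp2e1 the most abundant were Cyp2d26 at 816 ± 24.1 FPKM (SD, n = 3), Cyp2f2 at 772 ± 29.8 and Cyp2d9 at 706 ± 147, neighbours in this order that did not differ beyond their spread. All members together summed to 11600, 11900 and 11200 FPKM in GFP and 8960, 12000 and 10400 FPKM in Cre livers, a ratio of means of 0.905, and the groups overlapped. The same ratio in CPM was 0.805. On that scale the groups did not overlap, at 21500, 22500 and 22000 CPM in GFP and 15900, 18400 and 19000 CPM in Cre livers.

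Summed by subfamily, which keeps together the fragments that paralogs share, the FPKM ratio of Cre to GFP means was 0.317 for Cyp2b, 0.551 for Cyp2u, 0.705 for Cyp2j, 0.811 for Cyp2d, 0.847 for Cyp2f, 0.881 for Cyp2e, 0.918 for Cyp2c, 0.93 for Cyp2a and 1.88 for Cyp3a. These totals are descriptions and were not tested. In CPM the order was the same with the ratios shifted down, from 0.265 for Cyp2b to 1.6 for Cyp3a. Cyp2j and Cyp2u totals did not overlap between the groups on either scale. The Cyp2d totals did not overlap either, at 2340, 2550 and 2100 FPKM against 1810, 1890 and 1970 FPKM. The Cyp2b totals did overlap in FPKM, because Cre replicate 2 (61.9 FPKM) lay above GFP replicate 2 (54.7 FPKM). In CPM the Cyp2a, Cyp2b, Cyp2c and Cyp2e totals also lay wholly below those of the GFP livers, while the Cyp2f and Cyp3a totals overlapped.

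**Figure D2:**
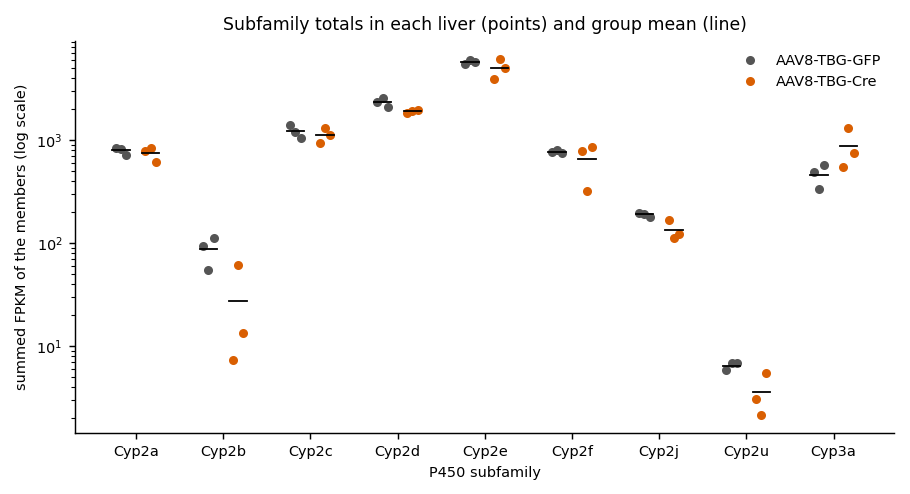
Summed FPKM of the members of each subfamily (vertical axis, log scale) in each liver (points) with the group mean (line), for the 9 subfamilies named above. Cyp2d, Cyp2j and Cyp2u points separate downward in the AAV8-TBG-Cre livers and the Cyp3a mean is 1.88 times the GFP mean. The other subfamilies overlap on this FPKM scale.

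The Cyp2d subfamily held the member with the strongest statistical support. Cyp2d40 (NCBI gene 71754, chromosome 15, 82759833 to 82764122) was at 105, 103 and 89.5 CPM in the GFP livers and at 48.6, 32.3 and 41.4 CPM in the Cre livers. Every Cre liver lay below every GFP liver by a wide margin. The log2 fold change was -1.28 ± 0.16, a 2.43-fold reduction (adjusted p = 0.033). With any single library left out it was between -1.43 and -1.14, and the adjusted p was 0.0173 without Cre replicate 1 and from 0.0559 to 0.135 without any of the others. Cyp2d26, which begins 26.0 kb further along the chromosome, was at 1410, 1430 and 1420 CPM against 989, 862 and 938 CPM. Its GFP livers were nearly identical, and it was 1.53-fold lower (-0.61 ± 0.15 on the log2 scale, adjusted p = 0.0806). Cyp2d9, a male-biased testosterone hydroxylase, was at 1130, 1510 and 1050 CPM against 784, 944 and 1140 CPM, with overlapping groups and a log2 fold change of -0.36 ± 0.21 (adjusted p = 0.377). The other 6 tested members of the subfamily had log2 fold changes between -0.36 (Cyp2d10) and 0.54 (Cyp2d11), and none passed.

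In the Cyp2b subfamily, 2 female-biased members were lower. Cyp2b13 (NCBI gene 13089) was at 6.76, 3.26 and 10.2 CPM in the GFP livers and at 0, 0.739 and 0.144 CPM in the Cre livers. Cre replicate 1 held no fragment of it and Cre replicate 3 held 2.58 estimated counts. The fitted reduction was 21.3-fold (log2 fold change -4.41 ± 0.82, adjusted p = 0.0553), a size that rests on these few counts. It moved to -6.43 on the log2 scale when Cre replicate 2 was left out (adjusted p = 0.0766). Its neighbour Cyp2b9 (NCBI gene 13094) was far more abundant, at 172, 99.4 and 219 CPM against 12.1, 97.0 and 25.1 CPM. The groups were separated by little, since Cre replicate 2 was just below GFP replicate 2, whereas the other Cre livers were far below. Cyp2b9 was 3.65-fold lower (-1.87 ± 0.70, adjusted p = 0.19), and the call was lost without GFP replicate 1 (adjusted p = 0.355), GFP replicate 3 (adjusted p = 0.317) or Cre replicate 3 (adjusted p = 0.356). With Cre replicate 2 left out it moved to -3.14 (adjusted p = 0.0766). Cyp2b10, the classical target of CAR, was at 4.12, 5.15 and 0.314 CPM against 1.62, 0.534 and 0.481 CPM and did not pass (-1.87 ± 0.87, adjusted p = 0.274). The lowest of its 6 values belonged to a GFP liver.

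Cyp2a4 went the other way. This female-biased steroid hydroxylase (NCBI gene 13086), located 96.5 kb from Cyp2b9, was at 4.93, 1.48 and 3.66 CPM in the GFP livers and at 13.0, 12.9 and 10.7 CPM in the Cre livers. The groups did not overlap on either scale and the Cre values were close together. It was 3.62-fold higher (1.86 ± 0.37 on the log2 scale, adjusted p = 0.0601). Its close paralog Cyp2a5, which oxidizes coumarin and nicotine, was at 859, 883 and 581 CPM against 570, 677 and 378 CPM, with overlapping groups and a log2 fold change of -0.52 ± 0.26 (adjusted p = 0.303). In the GFP livers Cyp2a5 averaged 420 ± 101 FPKM and Cyp2a4 1.85 ± 0.984 FPKM. How fragments common to the pair were divided between them was not tested. Cyp2a12 was at 612, 591 and 707 CPM against 703, 475 and 633 CPM (-0.076 ± 0.18, adjusted p = 0.849). Its sign turned positive on the FPKM scale.

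Among the 15 Cyp2c genes, 13 were tested, 2 were lower and 1 was higher. Cyp2c29 (NCBI gene 13095), an arachidonic acid epoxygenase induced through CAR, was at 597, 450 and 386 CPM in the GFP livers against 255, 379 and 166 CPM. The groups met closely, with GFP replicate 3 just above Cre replicate 2. It was 1.79-fold lower (-0.84 ± 0.30, adjusted p = 0.179). Cyp2c37 (NCBI gene 13096) was at 277, 240 and 222 CPM against 75.4, 187 and 148 CPM and was 1.8-fold lower (-0.85 ± 0.30, adjusted p = 0.172). Both calls were lost on the FPKM scale, where the groups overlapped (limma on log2(FPKM + 1), adjusted p = 0.306 and 0.276). Without GFP replicate 1 they were lost as well (adjusted p = 0.415 and 0.377), and the Cyp2c29 call was also lost without Cre replicate 1 (adjusted p = 0.199) or Cre replicate 3 (adjusted p = 0.292).

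Cyp2c44 (NCBI gene 226143, Cyp2c23 in RefSeq), another epoxygenase, stands apart from the other Cyp2c genes on chromosome 19 and had a closest coding identity of 68.5%. It was at 246, 268 and 239 CPM against 378, 244 and 454 CPM. Cre replicates 1 and 3 were above all GFP livers and Cre replicate 2 was among them. The increase was 1.43-fold (0.52 ± 0.22, adjusted p = 0.238), and the call was lost in 5 of the 6 fits that left out a library, with adjusted p from 0.267 to 0.483. Cyp2c50, the most abundant member of the subfamily at 330 ± 23.8 FPKM, was at 629, 629 and 580 CPM against 353, 630 and 601 CPM, so that only Cre replicate 1 was low (-0.21 ± 0.23, adjusted p = 0.637). Cyp2c38 had a larger log2 fold change of -1.19 ± 0.54 without passing (adjusted p = 0.263), since Cre replicate 1 (10.9 CPM) was low while Cre replicate 2 (67.3 CPM) lay among the GFP values of 95.3, 66.7 and 108 CPM. It was named after its values were seen.

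Cyp3a11, the main inducible drug-oxidizing P450 of mouse liver and a target of PXR (NCBI gene 13112), was at 547, 283 and 721 CPM in the GFP livers and at 687, 1890 and 1190 CPM in the Cre livers. Cre replicate 1 lay within the GFP range in CPM, and the other Cre livers were above it. The increase was 2.42-fold (1.28 ± 0.44, adjusted p = 0.161), the largest in absolute CPM of any member that rose. Without Cre replicate 2 the log2 fold change was 0.85 and without GFP replicate 2 it was 0.98, and neither passed (adjusted p = 0.416 and 0.342). In FPKM the groups did not overlap, at 257, 131 and 320.0 against 341, 1080 and 570. Cyp3a25, which lies 97.3 kb from Cyp3a11, was at 310, 273 and 377 CPM against 208, 285 and 236 CPM (-0.40 ± 0.18, adjusted p = 0.25). Cyp3a13 and Cyp3a59 had log2 fold changes of -0.17 and -0.14. The rise was thus seen for 1 of the 4 tested Cyp3a genes, and whether Cyp3a11 differed from its relatives was not tested.

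**Figure D3:**
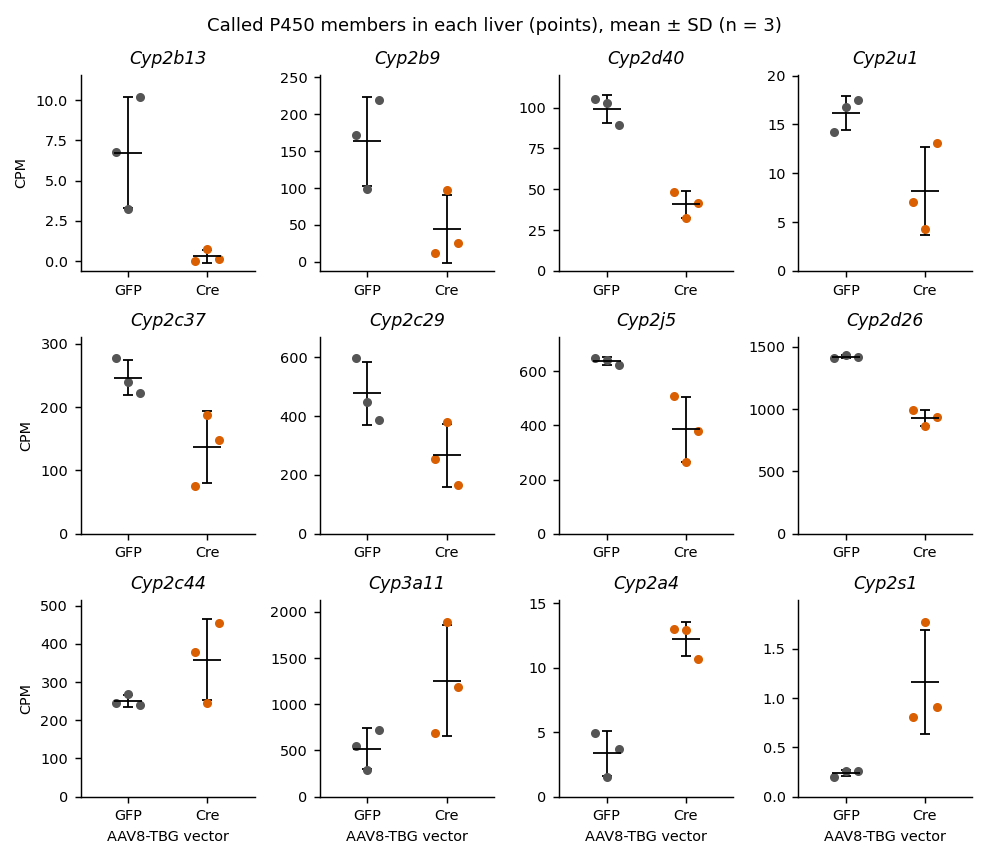
CPM (vertical axis) of the 12 members that passed the threshold in each AAV8-TBG-GFP (grey) and AAV8-TBG-Cre (orange) liver, ordered by log2 fold change, with mean and SD (n = 3). Cyp2d40, Cyp2d26 and Cyp2j5 show tight GFP values with all Cre livers below them, whereas in Cyp2c44 and Cyp3a11 1 Cre liver lies within the GFP range.

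Members outside these large clusters included enzymes of fatty acid and arachidonic acid metabolism. Cyp2j5 (NCBI gene 13109), an arachidonic acid epoxygenase of liver and kidney, was at 649, 643 and 623 CPM against 509, 266 and 380 CPM. The GFP livers differed little and all Cre livers were lower, giving a 1.66-fold reduction (-0.73 ± 0.23, adjusted p = 0.138). The other 3 tested Cyp2j genes had log2 fold changes from -0.49 to -0.20 without passing. Cyp2u1 (NCBI gene 71519), a fatty acid hydroxylase, was at 14.2, 16.8 and 17.5 CPM against 7.01, 4.31 and 13.1 CPM and was 1.99-fold lower (-1.0 ± 0.35 on the log2 scale, adjusted p = 0.172). Its call was lost without GFP replicate 2, GFP replicate 3 or Cre replicate 1 (adjusted p = 0.342, 0.277 and 0.201).

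Cyp2f2, an enzyme of the periportal side of the lobule known for activating naphthalene, was at 1470, 1560 and 1500 CPM against 1410, 501 and 1600 CPM. Cre replicate 2 alone was low, and the log2 fold change of -0.37 ± 0.38 did not pass (adjusted p = 0.636). Cyp2r1, a vitamin D hydroxylase, did not pass either (-0.39 ± 0.22, adjusted p = 0.366). Cyp2s1 (NCBI gene 74134), a P450 of epithelia, was barely detected at 0.203, 0.255 and 0.262 CPM in the GFP livers and was at 0.811, 1.77 and 0.915 CPM in the Cre livers, 4.79-fold higher (2.26 ± 0.46, adjusted p = 0.0619). Its estimated counts were whole numbers in every library, at 4, 5 and 5 in the GFP livers and 17, 43 and 19 in the Cre livers. It thus entered the test only through its Cre counts. Cre replicate 2, the highest for Cyp2s1, was also the highest for the summed cholangiocyte markers (332, 544 and 273 CPM in the Cre livers against 104, 50.4 and 87.0 CPM). Most of that sum was Spp1 (295, 457 and 219 CPM in the Cre livers), while Krt19 was at 4.10, 10.4 and 4.43 CPM there. The part of these markers in the result was not tested.

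The livers did not move in step. Of the 42 tested members, 24 were below all GFP livers in CPM in Cre replicate 1, 23 in Cre replicate 2 and 23 in Cre replicate 3, but these were partly different genes. In the same order, 6, 7 and 9 members were above all GFP livers. The share over all genes was not computed for single livers, so these counts do not show a trait of the members. Cre replicate 1 was the lowest Cre liver for the female-biased Cyp2b9 and for Cyp2c37 and Cyp2c38, whereas Cre replicate 2 was the lowest for Cyp2d40, Cyp2f2, Cyp2j5 and Cyp2u1 and the highest for Cyp3a11. The 15 members that averaged at least 100 CPM in the GFP livers and did not pass all had negative edgeR log2 fold changes, from -0.52 to -0.025. They were picked by their GFP level, which favours negative changes, and the share over all genes at that level was not computed. In FPKM the mean was higher in the Cre livers for Cyp2a12 (358 in GFP, 380 in Cre) and Cyp2c68 (74.9 in GFP, 83.5 in Cre).

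**Figure D4:**
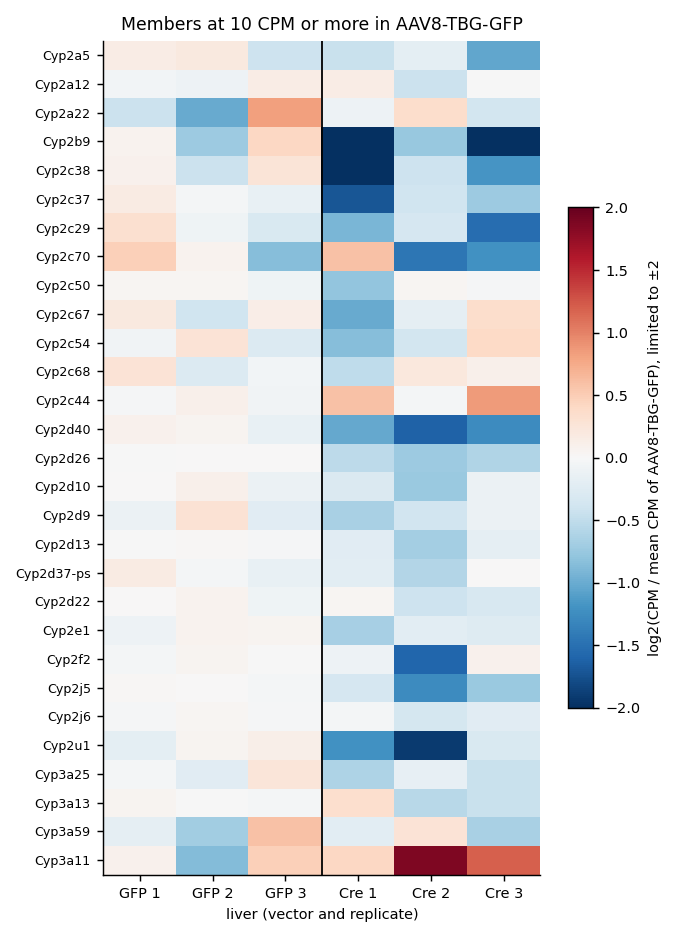
Log2 ratio of CPM in each liver (columns) to the mean of the AAV8-TBG-GFP livers for the 29 tested members at 10 CPM or more in GFP (rows, by subfamily); blue is below and red above that mean, limited to 2 in either direction. Rows are mostly blue in the 3 Cre columns, with Cyp3a11 and Cyp2c44 as the red exceptions among those that passed. Choosing rows by their GFP mean favours members that are lower in the Cre livers. Cyp2a4 and Cyp2s1 (higher) and Cyp2b13 (lower) passed the threshold but were under that level in GFP and are not shown.

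The library names came in 2 forms, with 2 digits for GFP replicates 1 and 2 and Cre replicate 1, and 4 digits for GFP replicate 3 and Cre replicates 2 and 3. The labels do not say what the forms mean. Within each form the ratio of mean Cre to mean GFP CPM was taken. Of 41 members with a ratio in both forms (Cyp2b13 had none, with 0 in Cre replicate 1), 23 were negative in both, 6 were positive in both and 12 had opposite signs. The 11 members with a ratio that had passed the threshold kept 1 sign in both forms. They had been chosen on the same 6 libraries, so this agreement is not separate support. The 2-digit form held 1 Cre library and the 4-digit form 1 GFP library. For Cyp2d40 the log2 ratios were -1.10 in the 2-digit and -1.28 in the 4-digit libraries, for Cyp2d26 -0.52 and -0.66, for Cyp2a4 2.02 and 1.68, and for Cyp3a11 0.73 and 1.09. They were further apart for Cyp2b9 (-3.49 and -1.85), Cyp2c37 (-1.78 and -0.40), Cyp2c29 (-1.04 and -0.50) and Cyp2j5 (-0.35 and -0.95). With the name form in the model, Cyp2d40 and Cyp2b13 were lower at adjusted p = 0.0114 and 0.0288, and Cyp2c29 no longer passed (adjusted p = 0.248). Cyp2c70, which forms muricholic bile acids, followed the name form: it was at 314, 236 and 125 CPM in the GFP livers and at 339, 82.9 and 96.9 CPM in the Cre livers. Cyp2c70 was named after its values were seen.

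How well single paralogs can be told apart varied. The deposited estimated counts were whole numbers in every library (within 0.005) for 7 tested members, namely Cyp2c44, Cyp2c55, Cyp2c70, Cyp2f2, Cyp2s1, Cyp2u1 and Cyp3a13, and in no library for 31, whose fragments were divided between transcripts by estimation. Of the 36 tested members with a coding sequence and another member in their subfamily, 22 were at least 90% identical to the closest one, the range being 68.5% to 98.5%. Values of the Cyp2a, Cyp2b, Cyp2c, Cyp2d and Cyp3a genes outside those 7 are therefore uncertain as to the single paralog.

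Genes that serve P450 enzymes were read from fixed lists. Over all tested genes, 8.41% were lower and 12.0% higher at the same threshold. Of 6 genes of electron transfer, 4 were lower and none higher. Cyb5a, a cytochrome b5, was at 842, 807 and 879 CPM against 680, 628 and 652 CPM (-0.37 ± 0.13, adjusted p = 0.18). Cyb5b, the outer mitochondrial membrane form, was at 501, 402 and 368 CPM against 299, 245 and 251 CPM (-0.68 ± 0.16, adjusted p = 0.0815). Pgrmc1 and Pgrmc2, heme-binding membrane proteins that associate with P450 enzymes, had log2 fold changes of -0.45 ± 0.14 and -0.45 ± 0.12 (adjusted p = 0.139 and 0.0962). In CPM the Cre livers lay wholly below the GFP livers for each of these 4, as they did for 13.0% of all genes. The 4 had been called on the same libraries, so this is not separate support. Por, the cytochrome P450 reductase, was at 824, 850 and 456 CPM against 846, 530 and 464 CPM and did not pass (-0.21 ± 0.31, adjusted p = 0.744), with its lowest value in a GFP liver. Of 10 genes of heme synthesis and breakdown, 3 were lower (Urod -0.28, Cpox -0.48 and Blvrb -0.40) and Hmox1, the inducible heme oxygenase, was higher (1.22 ± 0.41, adjusted p = 0.156, overlapping groups). Alas1, the first and rate-limiting enzyme of heme synthesis, was at 831, 513 and 925 CPM against 724, 727 and 307 CPM (-0.37 ± 0.36, adjusted p = 0.609).

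Of 16 receptors and factors that control these genes, 5 were lower and none higher, where 8.41% of all tested genes were lower and 12.0% higher. Nr1i3, encoding CAR, was at 181, 165 and 194 CPM in the GFP livers and at 84.7, 117 and 88.0 CPM in the Cre livers, a clear separation (-0.90 ± 0.15, adjusted p = 0.0491). Nr1i2, encoding PXR, was at 101, 92.4 and 84.2 CPM against 83.0, 59.3 and 56.2 CPM, with GFP replicate 3 just above Cre replicate 1 (-0.49 ± 0.17, adjusted p = 0.162). The other 3 were Nr1h4, the bile acid receptor (-0.48 ± 0.15), Cebpb (-0.65 ± 0.15) and the clock-output factor Hlf (-0.45 ± 0.15). Hnf4a had a log2 fold change of 0.069 ± 0.19 and Ahr one of -0.044 ± 0.32. Of members commonly used as readouts of CAR and PXR, log2 fold changes were -0.84 for Cyp2c29, -1.87 for Cyp2b10 and 1.28 for Cyp3a11. Cyp2b10 did not pass, and the calls of Cyp2c29 and Cyp3a11 were lost in some fits. Any link to these receptors was not tested.

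**Figure D5:**
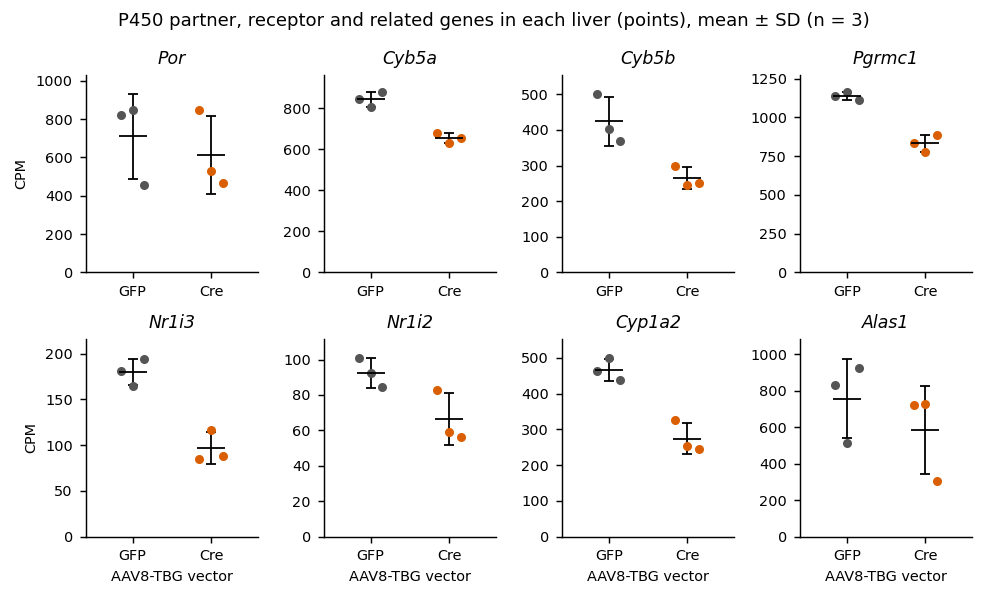
CPM (vertical axis) of 8 genes that are not members in each AAV8-TBG-GFP (grey) and AAV8-TBG-Cre (orange) liver, with mean and SD (n = 3). Cyb5a, Cyb5b, Pgrmc1, Nr1i3, Nr1i2 and Cyp1a2 are lower in all Cre livers, while Por and Alas1 overlap.

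Family 1, which is controlled by the aryl hydrocarbon receptor, was measured alongside. Cyp1a2, a pericentral enzyme that oxidizes caffeine, was at 462, 499 and 437 CPM against 325, 252 and 245 CPM (-0.77 ± 0.15, adjusted p = 0.0611). Cyp1b1, which in liver is expressed largely outside hepatocytes, was at 1.68, 0.765 and 0.628 CPM against 3.29, 7.93 and 3.99 CPM (2.30 ± 0.48, adjusted p = 0.0631). The summed stellate cell and fibroblast markers were at 345, 754 and 339 CPM in the same Cre livers, and their part in the result was not tested.

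Members were also grouped by known sex bias and by place in the lobule. The counts below stand beside 8.41% lower and 12.0% higher over all tested genes. Of the 10 members on a list of female-biased genes, 7 were tested, of which 1 was higher (Cyp2a4) and 2 were lower (Cyp2b9 and Cyp2b13). Of the 2 male-biased members, Cyp2u1 was lower and Cyp2d9 did not pass. In the growth hormone pathway that sets this bias, 2 of 8 tested genes were lower: Ghr, the receptor (-0.46 ± 0.19, adjusted p = 0.229, overlapping groups), and Stat5a (-0.47 ± 0.11, adjusted p = 0.0792). Of 6 pericentral genes, 3 were lower, namely Cyp2c29, Cyp1a2 and Glul, the glutamine synthetase of the cells next to the central vein, which was at 1810, 1570 and 2030 CPM against 665, 1350 and 1100 CPM (-0.80 ± 0.27, adjusted p = 0.158). Cyp2e1, Cyp2a5 and Oat did not pass, and Oat went up (0.26 ± 0.25, edgeR adjusted p = 0.588). The pericentral sum was 14300, 15200 and 15300 CPM in the GFP livers and 9180, 13000 and 11800 CPM in the Cre livers, most of it Cyp2e1. The periportal Cyp2f2 had a log2 fold change of -0.37 ± 0.38, near that of Cyp2e1 (-0.36 ± 0.22). A difference between the zones was not tested.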

How the data were processed

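Liver RNA of 6 mice was enriched for mRNA or depleted of rRNA, primed with random hexamers and sequenced on a DNBseq platform. The deposited values were expected counts per transcript, estimated by RSEM, and FPKM per gene. The submitters' processing notes name HISAT2, Bowtie2, RSEM and the build mm10, whereas the study's methods name STAR, HTSeq and DESeq2; versions are not given in the sources used here. The deposited FPKM values are scaled to fragments per library and transcript length by the authors.

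Expected counts were summed per NCBI gene ID and rounded. Genes were filtered by filterByExpr, scaled by TMM and tested for vector alone with the quasi-likelihood test of edgeR 4.0.16 (R 4.3.3), with Benjamini-Hochberg adjustment over all 13431 genes tested. The standard error was the log2 fold change divided by the square root of F. Named members were those with p under 0.05 and 1.2-fold, and the 2 highest in FPKM of each subfamily. Some others were named outside this rule, among them Cyp2c38 and Cyp2c70 after their values were seen. DESeq2 1.42.0, limma 3.58.1 on log2(FPKM + pseudocount) and 16 alternatives in all were run. With 3 against 3, an exact permutation test cannot go below p = 0.1, so p-values rest on the fit over all genes. The scripts were tested on simulated data. Members and lists were chosen with earlier results of these data known. Nothing states separate cultures or batches, and p-values measure the spread between these samples. Coordinates are RefSeq GRCm38.p6. Coding sequences came from GENCODE vM1 on NCBIM37 and were used for identity only.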

Additional observations from a re-analysis of the deposited data

How the results depend on the processing

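Of 188 values of the 12 members past the threshold under the alternatives that could give one, all 188 kept their direction and 162 still passed. These fits reuse the data that chose the 12 members, so the agreement is not separate support. Cyp2a4, Cyp2d26, Cyp2d40 and Cyp2j5 passed in all 16 alternatives, Cyp2b13 in all 15 and Cyp2s1 in all 13 in which they could be tested. The alternatives missing for Cyp2b13 and Cyp2s1 were those whose stricter filters removed them. In the main fit Cyp2b13 entered the test only through its GFP counts and Cyp2s1 only through its Cre counts. The number of members lower at the threshold was 8, and became 14 with DESeq2 and 13 with no filter on low counts. Leaving out 1 library gave 5 (without GFP replicate 1) to 13 (without Cre replicate 1). The number higher was 4, and became 5 with DESeq2, 6 with no filter on low counts, and 2 (without GFP replicate 2) to 4 when a library was left out. Calls over all genes moved too, from 2747 to 2976 with DESeq2 and 3249 with no filter. They were 2035 without GFP replicate 1 and 3730 without Cre replicate 1. At adjusted p under 0.05, the 1 lower member became 4 with DESeq2, 2 with no filter, 2 with the library name form as covariate, 0 with limma on log2(FPKM + 1) with no filter, and 0 to 3 when a library was left out, being 0 in all but the fit without Cre replicate 1. The 0 higher members became 3 with DESeq2, 1 with no filter, and 0 to 2 when a library was left out. Over all genes, none passed adjusted p under 0.05 without GFP replicate 2 or without Cre replicate 2, against 125 with all libraries. The number was 1157 with DESeq2, 372 with no filter, 214 with the name form and 928 without Cre replicate 1. The sign of Cyp2a12 turned to 0.077, 0.078 and 0.077 in the FPKM fits (pseudocount 1, 0.1, and 1 with no filter) and ranged from -0.20 to 0.067 when a library was left out. That of Cyp2c50 ranged from -0.36 to 0.0052. The cause was not tested. The median log2 fold change of the members, -0.35, ranged from -0.37 to -0.21 when a library was left out. It was -0.19 and -0.21 with limma on log2(FPKM + 1) and log2(FPKM + 0.1), and -0.07 on log2(FPKM + 1) with no filter, which was -0.14 relative to all genes. The library scalings by RLE and upper quartile left the count of members called at 13 and 12 against 12. Single paralogs and members at a few counts limit what these depths can show.

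The replicate numbers did not pair the samples, as the correlations of same-numbered deviations were 0.001, -0.257 and 0.201, and only 1 library correlated best with its own number. With the replicate number as a block, 2 members were higher and 10 lower at p under 0.05 and 1.2-fold, and at adjusted p under 0.05 0 were higher and 0 lower.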
